A study of Mus musculus with 15 samples.

Results

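Mouse lung was set against the other adult tissues of a panel of small RNA libraries. The lung group was 1 library, and the other adult libraries were 11: brain, eye, heart, kidney, liver, salivary gland, smooth muscle, spinal cord, spleen, stomach and testis. With 3 whole-embryo libraries they make up the 15 libraries of the series. Each library was made from total RNA of 1 tissue of a commercial mouse panel, with adapters whose ends are randomised to reduce ligation bias (a protocol called AQ-seq). No library is treated or mutant, and strain, age, sex and the number of animals behind each RNA are not given in the labels. Adult here means any library not titled as embryo. Every value below is therefore that of a single library of RNA from an intact tissue, which holds blood and all the other cell types of that tissue.

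A microRNA (miRNA) is cut from a hairpin precursor, whose 5p and 3p arms can each give a mature strand. It guides Argonaute proteins to messenger RNAs that pair with its seed, bases 2 to 8, and lowers their output. Several miRNAs are made mostly in 1 cell type, so that a whole-tissue profile reads the cells the tissue holds. Lung is known for its dense capillary bed, its blood content, the ciliated cells of its airways and its alveolar epithelium.

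The mature sequences of the miRNAs on which the comparison turns are given with the seed in capitals, from RefSeq on GRCm38.p6. The first set was chosen because it marks endothelium (miR-126a-3p), red cells (miR-451a and miR-144-3p) and inflammation (miR-146b-5p, beside its relative miR-146a-5p).
miR-126a-3p: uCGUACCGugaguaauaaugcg
miR-451a: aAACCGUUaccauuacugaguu
miR-144-3p: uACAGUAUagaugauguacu
miR-146b-5p: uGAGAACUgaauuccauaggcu
miR-146a-5p: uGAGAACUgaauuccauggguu
The hairpin of miR-126a lies within Egfl7, a gene of endothelial cells, at chr2:26591357-26591429 on the plus strand. Those of miR-144 and miR-451a lie side by side at chr11:78073005-78073070 and chr11:78073170-78073241 on the plus strand. The hairpin of miR-146b lies in an intron of Mfsd13a at chr19:46342762-46342870 on the plus strand, and that of miR-146a at chr11:43374397-43374461 on the minus strand. Mature miR-146a-5p and miR-146b-5p share their seed and differ at 2 of 22 positions.

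The second set shares a seed and is known from multiciliated cells, though testis held its highest levels here.
miR-34b-5p: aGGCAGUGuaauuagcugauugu
miR-449a-5p: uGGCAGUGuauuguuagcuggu
miR-449c-5p: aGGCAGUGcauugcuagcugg
The miR-34b hairpin is at chr9:51103562-51103645 on the minus strand, and those of miR-449a and miR-449c are in an intron of Cdc20b at chr13:113037534-113037624 and chr13:113035983-113036091 on the plus strand. The miR-34 and miR-449 hairpins give miRNAs with the seed GGCAGUG that are needed in the mouse for the assembly of motile cilia.

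The third set comes from introns of a few host genes and holds miRNAs for which lung was among the 2 highest adult libraries: Calcr (miR-489 and miR-653), Htr2c (miR-1298) and the cardiac myosin genes Myh6 and Myh7 (miR-208a and miR-208b).
miR-489-3p: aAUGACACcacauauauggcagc
miR-653-5p: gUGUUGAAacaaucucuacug
miR-1298-5p: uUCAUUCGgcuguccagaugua
miR-208a-3p: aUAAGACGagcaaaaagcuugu
miR-208b-3p: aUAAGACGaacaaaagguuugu
The miR-489 and miR-653 hairpins are at chr6:3721897-3722003 and chr6:3721301-3721385 on the minus strand, and miR-1298 is at chrX:147064905-147065002 on the plus strand. The miR-208a and miR-208b hairpins are at chr14:54949060-54949142 and chr14:54975700-54975776 on the minus strand, and their mature strands share the seed UAAGACG.

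The lung library held 2970264 reads on 900 mature names, against 148052 reads in testis, 922137 in stomach and up to 3161463 in brain. Levels are given in CPM, the reads of a name per 1000000 reads listed in that library, and ratios are of such levels. The testis library is the shallow one, with 3 reads worth 20.3 CPM there and 1.01 CPM in lung. In the smooth muscle library the highest levels included miR-194-5p (147721 CPM) and miR-215-5p (96410 CPM), which are known from intestinal and kidney epithelium and go against its label, beside the smooth muscle miRNAs miR-143-3p (105347 CPM) and miR-145a-5p (48962 CPM). Leaving it out, the counts of lung-led names given below stayed at 27 and 4.

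A few names carried much of the lung profile. The first, miR-451a, took 10.26% of lung reads, the first pair 17.0%, the first 5 names 30.5% and the first 10 names 44.0%. After miR-451a, at 102603 CPM, came miR-126a-3p at 67471 CPM and miR-26a-5p at 54149 CPM. The following 7 were miR-21a-5p (42684 CPM), miR-143-3p (37724 CPM), miR-30a-5p (32051 CPM), let-7c-5p (28207 CPM), miR-29a-3p (27662 CPM), miR-30c-5p (24972 CPM) and let-7f-5p (22148 CPM). Of these 10 names, miR-451a, miR-126a-3p and miR-30a-5p were higher in lung than in every other adult library, and the other 7 lay within the range of the others. Over 1492 names the log2(CPM + 1) profile of lung had a Pearson r of 0.954 with salivary gland, 0.946 with kidney and 0.935 with spleen, down to 0.750 with testis, a description in which depth also differs between libraries.

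Among 277 names with at least 100 lung reads, 27 were higher in lung than in each of the 11 other adult libraries (9.75%), and 178 were above the median of the others (64.3%). The median ratio of lung to that median was 1.27. At least 4 times the median was reached by 39 names (14.1%), and at least 2 times the highest other library by 4 (1.44%): miR-1912-5p, miR-489-3p, miR-653-5p and miR-146b-5p. By the same counts brain led for 104 of 395 names (26.3%), testis for 78 of 168 (46.4%), spleen for 27 of 253 (10.7%) and liver for 10 of 198 (5.05%), and a lead of at least 2 times covered between 1.44% of names in lung and 35.7% in testis. Most names that lung led were thus led by a small margin. The minimum of 100 reads stands for a higher CPM in a shallower library. The percentages of testis (148052 reads, against 2970264 in lung) therefore cover only its more abundant names.

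With 1 lung library no permutation test of a single name can reach the threshold, since an exact permutation of 1 library against 11 cannot go below p = 0.0833. The quasi-likelihood test of edgeR, in which lung is assumed to vary as much as the other tissues do among themselves, called 0 of 822 names (0%) at an adjusted p below 0.05. At an unadjusted p below 0.05 it had 8 names, 7 higher and 1 lower in lung, and DESeq2 called 41 names, all lower in lung. The lowest adjusted p was 0.123, for miR-1912-5p. The names that DESeq2 called had log2 fold changes between -25.7 (miR-881-3p) and -19.7 (miR-873a-3p). Many of them, such as miR-465a-3p, miR-470-5p and miR-871-3p, had 0 lung reads, so these calls rest on absence from the lung library. The fit sets lung against the mean of the others, which a single library can carry. The calls therefore do not show that lung was below most tissues. In simulated data the edgeR test found 3.03% of log2 changes of 2 and 23.9% of log2 changes of 6. What follows is a description of levels, with intervals (95%, exact Clopper-Pearson) that cover counting error only.

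**Figure D1:**
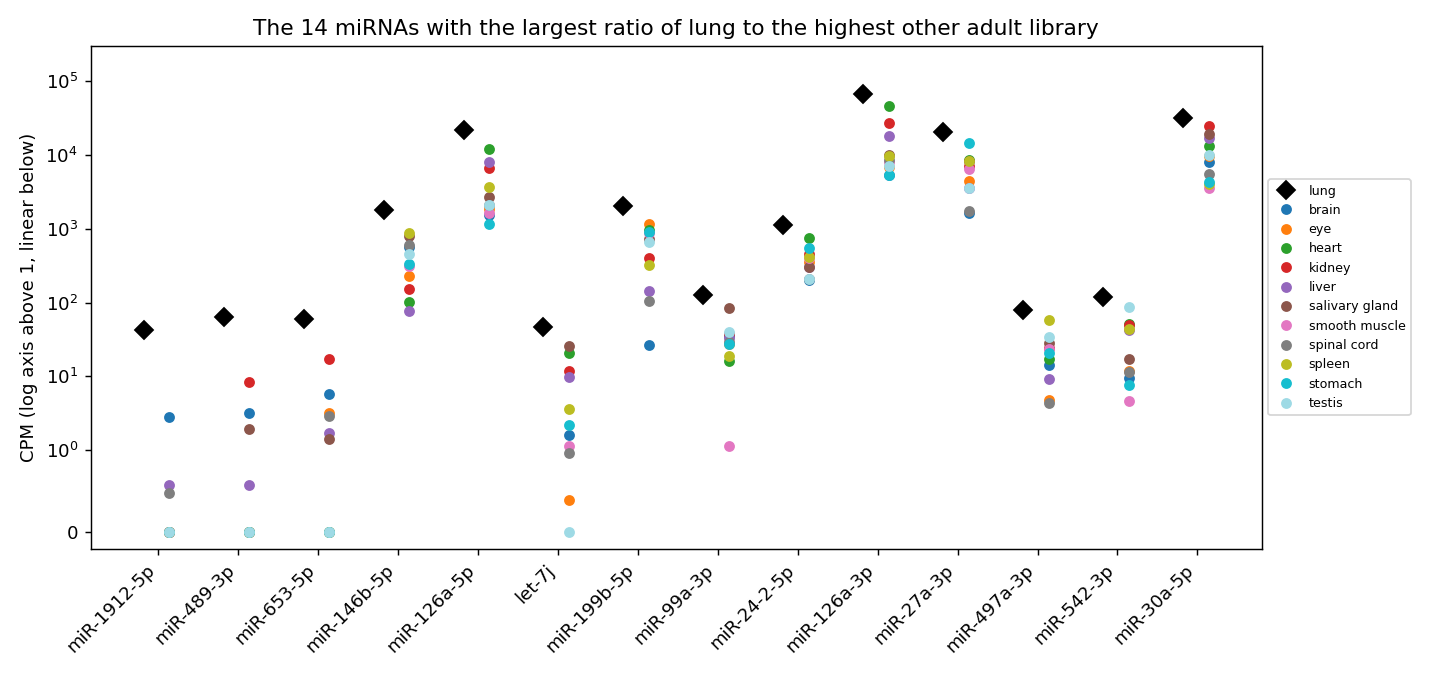
Level in CPM (log axis above 1, linear below) of the 14 miRNAs with the largest ratio of lung to the highest other adult library, lung as a black diamond and each other adult library as a coloured point, 1 library each. In miR-1912-5p, miR-489-3p and miR-653-5p the lung point stands well above the others, several of which are at 0, while for miR-126a-3p heart lies close below lung.

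Both strands of the endothelial miR-126a hairpin were higher in lung than in every other adult library, and of all lung miRNAs only miR-451a was more abundant than miR-126a-3p. miR-126a-3p, which supports vascular integrity and is made from Egfl7 in endothelial cells, had 67471 CPM in lung (interval 67186 to 67757), against a lowest of 5346 CPM in stomach, a median of 8567 CPM and a highest of 45688 CPM in heart. Kidney (26734 CPM) and liver (18011 CPM) came next, and the other 8 libraries lay at or below 10105 CPM. Lung was thus 1.48 times heart and 7.88 times the median, and no other library overlapped it.

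The opposite strand of the same hairpin, miR-126a-5p, had 21678 CPM in lung, against 1156 CPM (stomach), 2128 CPM (median) and 11955 CPM (heart, the highest), a ratio of 10.2 to the median. In edgeR the log2 fold changes were 2.33 ± 1.18 (SE; adjusted p = 0.835) for miR-126a-3p and 2.46 ± 1.23 (adjusted p = 0.835) for miR-126a-5p, neither past the threshold. The vascular miRNAs miR-221-3p (4039 CPM in lung, median 1777 CPM, 7208 CPM in kidney) and miR-222-3p (2693 CPM, median 958 CPM, 6177 CPM in brain) were above the median without leading. The remaining members, miR-126b-5p and miR-126b-3p, had 0 and 1 lung reads. The 6 members summed to 95881 CPM in lung, against a median of 15938 CPM and a highest of 59247 CPM in heart. In RNA from whole tissue, fewer cells of a type and less RNA per cell cannot be told apart, so these sums do not say which of them differs between tissues.

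Red cell miRNAs were as high in lung as in spleen. miR-451a, a Dicer-independent miRNA of erythroid cells, had 102603 CPM in lung (interval 102258 to 102949), against a lowest of 4487 CPM in smooth muscle, a median of 20266 CPM and a highest of 82291 CPM in spleen. Kidney followed spleen with 50383 CPM, so lung and spleen stood above the other 10 libraries. miR-144-3p, from the neighbouring hairpin, had 19041 CPM in lung and 19412 CPM in spleen, against a median of 1074 CPM, and the next library was salivary gland at 3339 CPM. Its 5p strand had 1160 CPM in lung, 925 CPM in spleen and a median of 194 CPM.

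miR-486a-5p, also an erythroid miRNA and one made in muscle from Ank1, had 4533 CPM in lung against 11111 CPM in heart, 3542 CPM in spleen and a median of 1586 CPM. miR-486b-5p had nearly the same counts in all libraries (a summed difference of 0.258%), so the values of both names are uncertain. The 7 erythroid members summed to 131906 CPM in lung, against a median of 25379 CPM, 109773 CPM in spleen and 5625 CPM in smooth muscle. All 6 members with at least 100 lung reads were above the median, where 64.3% of all names were, and 2, miR-451a and miR-144-5p, were above every other library, where 9.75% of all names were. The ratio of miR-451a to miR-144-3p was 5.39 in lung, close to the lowest of the others (4.24 in spleen), against a median of 21.3 and a highest of 41.5 in eye. Recomputing shares without miR-451a left 4 names at least 2 times the highest other and 40 at least 4 times the median.

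Leukocyte miRNAs were above most tissues in lung and far below spleen. miR-142a-3p, made in all blood lineages, had 21898 CPM in lung, 22623 CPM in salivary gland and 170697 CPM in spleen, against a median of 3445 CPM and a lowest of 259 CPM in eye. Its 5p strand had 7719 CPM in lung, against 54376 CPM in spleen and a median of 1074 CPM. miR-223-3p, of neutrophils and monocytes, had 2243 CPM in lung, second to spleen at 6474 CPM, with a median of 738 CPM. miR-150-5p, of mature lymphocytes, had 4036 CPM against 27986 CPM in spleen and a median of 1870 CPM. miR-155-5p, of activated leukocytes, had 313 CPM against 1919 CPM in spleen and a median of 170 CPM. miR-342-3p was the exception at 446 CPM, below its median of 878 CPM. The 8 members summed to 41382 CPM in lung, below 273320 CPM in spleen and salivary gland, with a median of 8605 CPM.

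miR-146b-5p was the only name above 100 CPM at least 2 times above every other adult library. This miRNA dampens Toll-like receptor and cytokine signalling, as its relative miR-146a-5p does. It had 1782 CPM in lung (interval 1735 to 1831), 867 CPM in spleen (interval 829 to 907), 808 CPM in salivary gland, 612 CPM in spinal cord and 574 CPM in brain. The median was 337 CPM and the lowest 77.8 CPM in liver, and lung was 2.06 times spleen and 5.28 times the median. Its log2 fold change in edgeR was 2.51 ± 0.91 (SE), with an unadjusted p of 0.0170 and an adjusted p of 0.835. miR-146a-5p had 4716 CPM in lung, below 9401 CPM in spleen and above all others, among them 3832 CPM in salivary gland. The ratio of miR-146a-5p to miR-146b-5p was 2.65 in lung, against a median of 7.13, a lowest of 0.626 in brain and a highest of 19.7 in liver. miR-142a-3p and miR-146b-5p were both high in lung, spleen and salivary gland, and the part of leukocytes in the miR-146b-5p level was not tested.

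**Figure D2:**
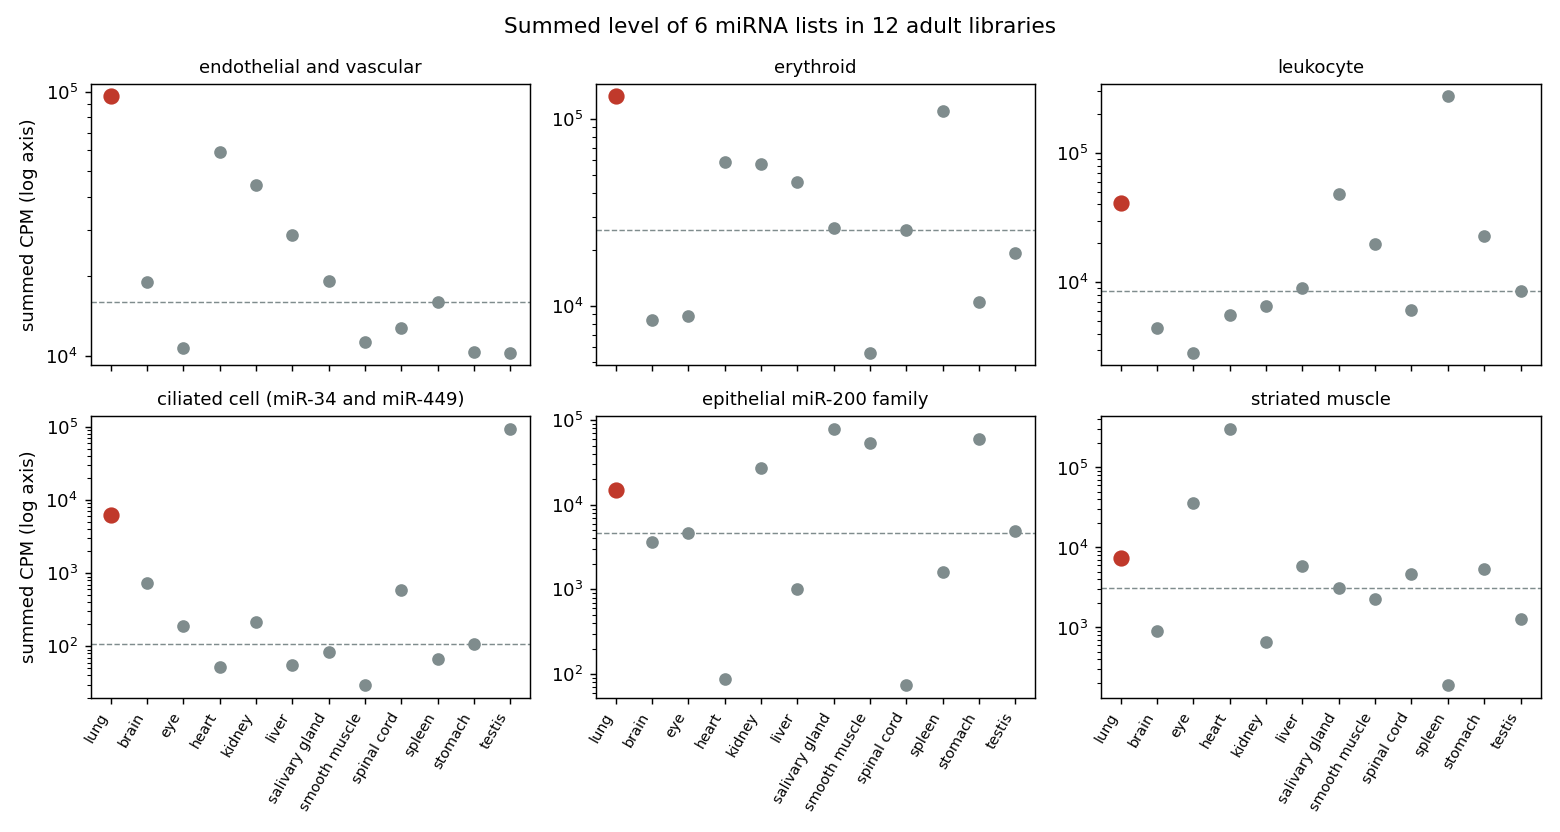
Summed level in CPM (log axis) of 6 lists of cell type miRNAs in the 12 adult libraries, lung in red and the others in grey, with the median of the others as a dashed line. Lung is highest for the endothelial list (95881 CPM) and the erythroid list (131906 CPM), behind spleen and salivary gland for leukocytes, second after testis for the ciliated cell list (6177 CPM), behind 4 libraries for the miR-200 family and behind 2 for striated muscle.

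The miR-34 and miR-449 names, grouped here as ciliated cell miRNAs, were second in lung and first in testis. Which cells made them in each tissue was not tested. miR-34c-5p had 3270 CPM in lung and 48645 CPM in testis, against 438 CPM in brain, 334 CPM in spinal cord, a median of 42.2 CPM and a lowest of 13.3 CPM in smooth muscle. miR-34b-5p, whose sequence is shown above, had 1762 CPM in lung and 15717 CPM in testis, against 126 CPM in brain and a median of 22.8 CPM. miR-449a-5p had 563 CPM in lung and 14468 CPM in testis, against a median of 10.8 CPM and a highest of 23.1 CPM (spinal cord) among the remaining libraries. Lung therefore held 77.4, 77.4 and 52.1 times the median of these 3 names, with testis alone above it for each.

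miR-449c-5p had 39.7 CPM in lung and 358 CPM in testis, against a median of 1.58 CPM. The 3p strands miR-34b-3p and miR-34c-3p had 412 and 128 CPM in lung. All 6 members with at least 100 lung reads were at least 4 times the median, where 14.1% of all names were. Both strands of mir-34b and of mir-34c are among these 6. Members enter this count, like those of the erythroid and miR-200 lists, through their lung reads. The lists were also chosen with earlier results of these data known, so such counts are no test. The other 3 members, miR-449a-3p, miR-449b and miR-449c-3p, had 1 or 2 lung reads. The ratio of miR-34c-5p to miR-449a-5p was 5.81 in lung, against a median of 3.38 and a range of 1.78 (stomach) to 38.0 (kidney).

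For these miRNAs the edgeR fit depends on the testis library. With it, the log2 fold change of miR-449a-5p was -0.24 ± 4.06 (SE; adjusted p = 0.997), in a fit that compares lung with the mean of the others. Without testis, edgeR called miR-34b-5p (log2 fold change 5.69), miR-449a-5p (5.75) and miR-449c-5p (4.75). Testis is the only adult library above lung for these names, so leaving it out makes lung the highest. The fit without it therefore adds no support to the levels given above. This exclusion is 1 of 11 made in turn, and the range of the number of calls over them was 0 to 3. Without testis, lung was 24.4 times the highest remaining library for miR-449a-5p, 14.04 times for miR-34b-5p and 7.47 times for miR-34c-5p.

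Epithelial miRNAs were moderate in lung. miR-200a-3p, a member of the miR-200 family that keeps cells epithelial by repressing Zeb1 and Zeb2, had 4535 CPM in lung, against a median of 1340 CPM, a highest of 23911 CPM in salivary gland and a lowest of 14.4 CPM in spinal cord. miR-141-3p had 3073 CPM and miR-200c-3p 2374 CPM in lung, against medians of 467 and 838 CPM. All 7 members with at least 100 lung reads were above the median, a position that 64.3% of all names held, and none led. The family summed to 14827 CPM in lung, with 4 libraries above it, against a median of 4603 CPM and 78333 CPM in salivary gland.

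miR-205-5p, a miRNA of basal cells of stratified and airway epithelium, had 1101 CPM in lung, against a median of 90.3 CPM. It was far higher in stomach (22648 CPM), eye (17044 CPM) and salivary gland (4370 CPM), so 3 libraries were above lung. miR-203-3p, of the epidermis, was close to its median (1550 CPM in lung, median 1487 CPM). miR-375-3p (330 CPM, median 635 CPM) and miR-148a-3p (2196 CPM, median 8313 CPM), both high in secretory cells, were below their medians.

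The heart muscle miRNAs miR-208a-3p and miR-208b-3p were higher in lung than in every adult library but heart. miR-208a-3p, made from the intron of the alpha cardiac myosin gene Myh6, had 364 CPM in lung (1081 reads) and 5120 CPM in heart, against 27.4 CPM in salivary gland and a median of 4.63 CPM. miR-208b-3p, made from Myh7, had 101 CPM in lung (299 reads) and 303 CPM in heart, against 13.5 CPM in testis and a median of 1.92 CPM. Lung was second of 12 for both, with no overlap with the other 10 libraries. It reached 7.11% of heart for miR-208a-3p and 33.2% of heart for miR-208b-3p.

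The remaining striated muscle miRNAs did not follow the same proportion. miR-499-5p, made from Myh7b, had 14.1 CPM in lung (42 reads), 0.141% of the 10044 CPM in heart and below its median of 28.8 CPM. miR-1a-3p had 4772 CPM in lung, 2.74% of heart, behind 16601 CPM in eye. miR-133a-3p had 1955 CPM in lung, 1.74% of the 112141 CPM in heart. miR-206-3p, of skeletal muscle, had 255 CPM in lung against 0.763 CPM in heart, 1523 CPM in eye and a median of 29.8 CPM. The levels in lung as a share of those in heart thus spread between 0.141% and 33.2% for the 5 names other than miR-206-3p. The part of muscle cells in the levels of other lung miRNAs was not tested.

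The miRNAs with the largest lead of lung were rare and came from introns of 2 genes. From Calcr, the calcitonin receptor gene, miR-489-3p had 63.0 CPM in lung (187 reads, interval 54.3 to 72.7) and 8.35 CPM in kidney (12 reads, interval 4.31 to 14.6), with 3.16 CPM in brain. Liver held 1 read, salivary gland 4, and the other 7 libraries none. Its neighbour miR-653-5p had 59.9 CPM in lung (178 reads, interval 51.4 to 69.4) and 17.4 CPM in kidney (25 reads, interval 11.3 to 25.7), with 5.69 CPM in brain and at most 3.15 CPM elsewhere. Lung was 7.54 times kidney for miR-489-3p and 3.45 times kidney for miR-653-5p, and lung, kidney and brain came in that order for both. Their median libraries held 0 and 3 reads, so ratios to the median say little beyond this. The opposite strands miR-653-3p and miR-489-5p had 34 reads and 1 read in lung. In edgeR the log2 fold changes were 5.96 ± 1.63 (SE; adjusted p = 0.835) and 4.79 ± 1.58 (adjusted p = 0.835).

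From Htr2c, the serotonin receptor 2C gene on chromosome X, miR-1912-5p had 43.1 CPM in lung (128 reads, interval 36.0 to 51.2). The next library, brain, had 2.85 CPM (9 reads, interval 1.30 to 5.40), liver and spinal cord had 1 read each and the other 8 none. Lung was 15.1 times brain, the largest lead of any name with at least 100 lung reads. Its edgeR log2 fold change was 7.03 ± 1.31 (SE), not past the threshold. The change was 8.19 without brain and 6.96 with the embryos in the fit. Brain is the highest other adult library for this name, so the fit without it adds no support to the levels given above.

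The other miRNAs of that gene did not share its pattern. miR-1298-5p had 93.3 CPM in lung (277 reads), below 309 CPM in brain and above 71.2 CPM in spinal cord, and at most 3.15 CPM in the rest. miR-1264-3p and miR-1264-5p had 7.74 and 5.05 CPM in lung (23 and 15 reads), against 60.2 and 84.2 CPM in spinal cord. The remaining 6 members, miR-448-5p, miR-448-3p, miR-764-5p, miR-764-3p, miR-1298-3p and miR-1912-3p, had 0 to 5 lung reads. Lung thus led for 1 of 10 mature names from introns of Htr2c. Ordered from lung to spinal cord, the arms of mir-1298 also differed: the 5p strand made up 98.9% of 280 reads in lung (interval 96.9% to 99.8%), 85.1% of 1147 reads in brain (interval 82.9% to 87.1%) and 38.2% of 387 reads in spinal cord (interval 33.4% to 43.3%), shares whose counting intervals did not overlap.

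**Figure D3:**
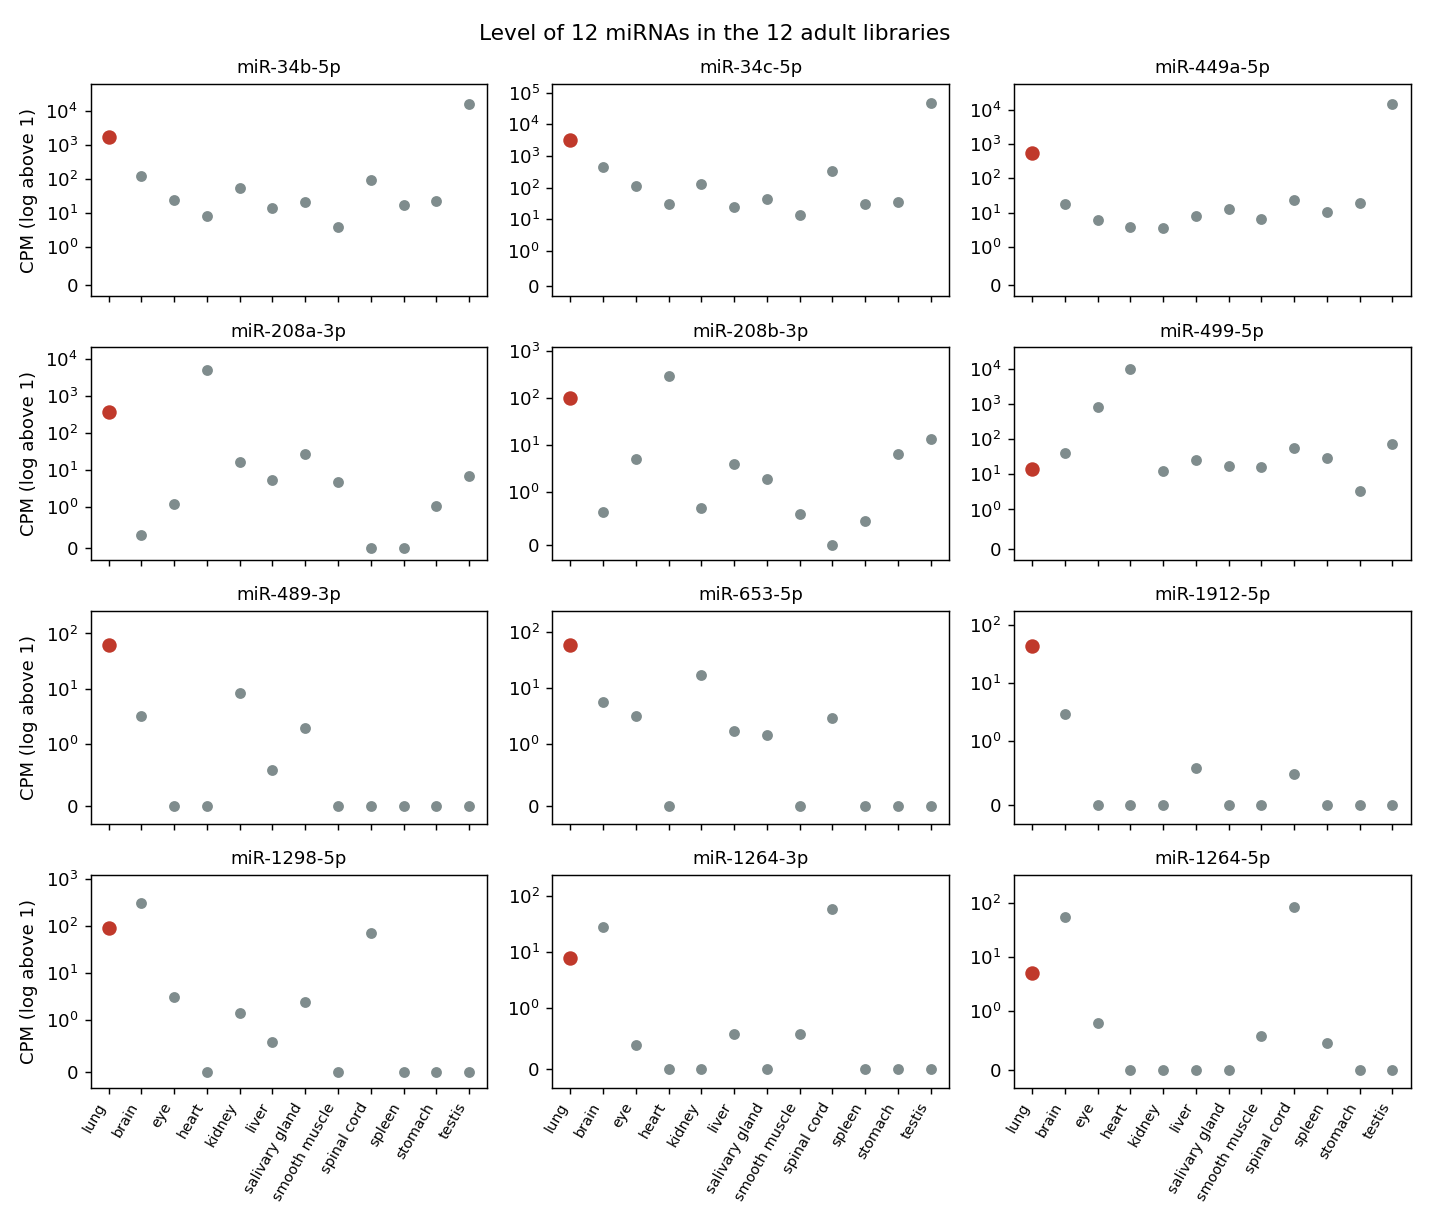
Level in CPM (log above 1, linear below) of 12 miRNAs of the miR-34 and miR-449, Myh, Calcr and Htr2c loci in each adult library, lung in red and the others in grey. Lung is second to testis for miR-34 and miR-449 names, second to heart for miR-208a-3p and miR-208b-3p, first for miR-489-3p, miR-653-5p and miR-1912-5p, and behind brain for miR-1298-5p.

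Lung also led by smaller margins for several genomic clusters. From the cluster on chromosome 8, miR-27a-3p had 20494 CPM in lung, 14600 CPM in stomach and a median of 6396 CPM, and miR-23a-3p had 17495 CPM in lung, 15811 CPM in stomach and a median of 6967 CPM. miR-24-2-5p had 1114 CPM in lung against 746 CPM in heart and a median of 358 CPM. These 3 led by 1.40, 1.11 and 1.49 times. The other strands of the cluster did not lead: miR-24-3p, which has a copy in another cluster, had 21261 CPM in lung and 21652 CPM in stomach, miR-23a-5p had 30.6 CPM in lung and 49.9 CPM in stomach, and miR-27a-5p had 30.6 CPM in lung and 64.0 CPM in stomach. On chromosome X, the hairpins of miR-322, miR-503, miR-351, miR-542 and miR-450, a group singled out after its values were seen, had 13 mature names. Of the 10 with at least 100 lung reads, all were at least 4 times the median (4.15 to 8.15 times, where 14.1% of all names reached 4 times), and 4 led. For miR-542-3p, miR-542-5p and miR-450b-5p the next library was testis, with 13, 5 and 5 reads, so these leads are uncertain. The largest, miR-322-5p, had 2033 CPM in lung against 3776 CPM in testis and a median of 474 CPM.

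Among families with many members, lung led for some names and not for others. In the miR-30 family, miR-30a-5p had 32051 CPM in lung, 24540 CPM in kidney and a median of 9744 CPM, and miR-30d-5p had 14563 CPM in lung against 13981 CPM in eye, while miR-30c-5p was below kidney (24972 CPM in lung, 79113 CPM in kidney). In the let-7 family let-7i-5p had 13258 CPM in lung, 11741 CPM in spleen and a median of 5149 CPM, and the other 8 members did not lead. The name let-7j led with 46.1 CPM (137 reads, 25.9 CPM in salivary gland), but its sequence differs from let-7i-5p at 1 of 22 compared positions and it amounted to 0.348% of let-7i-5p reads in lung, 0.319% in salivary gland and 0.0172% in brain, so its value is uncertain. Among mesenchymal miRNAs miR-199b-5p had 2004 CPM in lung, 1170 CPM in eye and a median of 662 CPM. The names miR-199a-3p and miR-199b-3p had 5303 and 5310 CPM in lung, hardly above testis at 5079 and 5106 CPM. Their counts differed by 0.141% in sum over the libraries, so reads may be shared between them.

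**Figure D4:**
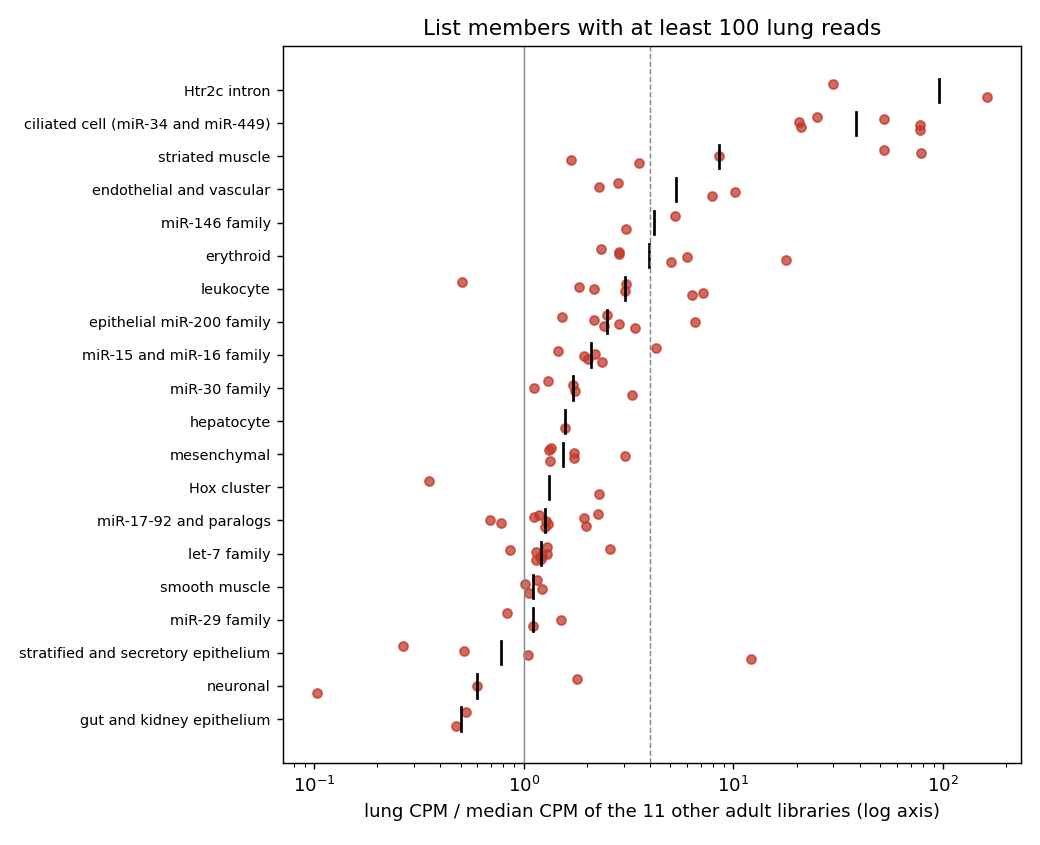
Ratio of lung CPM to the median CPM of the 11 other adult libraries (log axis) for members of each list with at least 100 lung reads, as points, with the median of the list as a black bar and lines at 1 and 4 times. Ciliated cell names lie between 20.4 and 77.4 times and neuronal and gut names mostly below 1, and both Htr2c points rest on median libraries with 0 or 1 read.

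Set beside the median ratio of 1.27 over all 277 names, the lists had median ratios, among members with at least 100 lung reads, of 38.6 for ciliated cell miRNAs (6 members), 8.55 for striated muscle (5), 5.34 for endothelium (4), 4.18 for the miR-146 family (2), 3.96 for erythroid (6), 3.04 for leukocyte (7), 2.49 for the miR-200 family (7) and 2.10 for the miR-15 and miR-16 family (6). Lower medians were found for the miR-30 family (1.72), hepatocyte (1.57, the single member miR-122-5p), mesenchymal (1.54), Hox cluster (1.32), miR-17-92 and paralogs (1.27), let-7 (1.20), smooth muscle (1.11) and miR-29 (1.10). The stratified and secretory list was at 0.781, the neuronal list at 0.596 and the gut and kidney list at 0.502. For the Htr2c intron the value of 95.9 rests on 2 members whose median libraries held 0 or 1 read. The minimum is set on lung reads, so these medians leave out members that are low in lung. In the striated muscle list this drops miR-499-5p, at 14.1 CPM in lung against a median of 28.8 CPM. The lists were also chosen with earlier results of these data known, so the medians are no test of them. No member of any list was called by edgeR. The medians of the edgeR log2 fold changes, which set lung against the mean of the others and take in every member tested, pointed the other way for 7 lists. They were -1.54 for striated muscle, -0.52 for the miR-200 family, -0.40 for the Htr2c intron, -4.20 for the Hox cluster, -8.01 for hepatocyte, -0.02 for smooth muscle and -0.065 for miR-17-92. Over all 822 names it was -0.97 with TMM scaling and -1.48 with library totals.

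The names lowest in lung relative to the others are known from neural tissue, eye, liver, kidney and gut. Of 194 names with a median of at least 100 CPM in the others, 6 had at most 0.25 of it in lung. miR-802-5p, of liver, kidney and gut, had 4.04 CPM in lung (12 reads) against a median of 236 CPM and a highest of 2626 CPM in smooth muscle. miR-129-2-3p, a neural miRNA, had 4.71 CPM against a median of 115 CPM, and miR-9-5p, also neural, had 93.9 CPM against a median of 912 CPM and 105010 CPM in brain. miR-204-5p, of retinal pigment epithelium, had 17.5 CPM against a median of 197 CPM and 33867 CPM in eye. miR-138-5p (26.6 CPM, median 160 CPM) and miR-183-5p (119 CPM, median 492 CPM, a miRNA of sensory cells) completed the 6. miR-378a-3p (1518 CPM, median 5830 CPM) and miR-148a-3p followed just outside that limit. For miR-194-5p and miR-192-5p lung was the lowest of the 12 libraries, at 273 and 132 CPM.

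The share of a hairpin's reads on its 5p arm differed little between lung and other tissues. Of 239 hairpins with both arms named and at least 20 lung reads, 134 were led by the 5p arm and 105 by the 3p arm. In 217 of them at least 5 other adult libraries also had 20 reads, and lung lay within 5 percentage points of the median of these in 179. Lung was outside the range of the others in 21 (9.68%), 13 above and 8 below. In an edgeR fit of arm against library and tissue, 0 of 194 hairpins (0%) were called, 4 had an unadjusted p below 0.05, and limma on log2 ratios called 0.

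Only mir-99a lay outside the range with counting intervals apart. Its 5p share was 96.4% of 10514 reads in lung (interval 96.1% to 96.8%), against 98.2% in spleen (interval 97.6% to 98.7%), the lowest of the others, a median of 99.4% and a highest of 99.9%. The 3p strand behind this, miR-99a-3p, had 126 CPM in lung, 84.5 CPM in salivary gland and a median of 29.4 CPM, while miR-99a-5p was below its median at 3414 CPM (median 5985 CPM).
miR-99a-5p: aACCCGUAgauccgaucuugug
miR-99a-3p: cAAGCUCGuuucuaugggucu
Both strands come from the hairpin at chr16:77598936-77599000 on the plus strand, in an intron of Mir99ahg, and are shown because of this 5p share. The log2 odds of the 5p arm were -2.62 ± 0.84 in edgeR (SE; unadjusted p = 0.0051, adjusted p = 0.849). The other 3 with an unadjusted p below 0.05, mir-374c, mir-153 and mir-497a, also had a lower 5p share in lung.

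The 8 hairpins farthest outside the range were thinly covered, with 23 to 80 lung reads. The best covered, mir-877, had a 5p share of 38.8% of 80 reads in lung (interval 28.1% to 50.3%), against 32.5% in heart (interval 18.6% to 49.1%) and a median of 25.7%. mir-485 had 11.5% of 26 reads against a lowest of 17.9% in heart, and mir-540 91.3% of 23 reads against a highest of 86.3% in salivary gland. The intervals overlapped those of the nearest library in each of the 8, which also held mir-466d, mir-297a, mir-381, mir-466p and mir-467c, and reads of the 466 and 297 names may be shared between copies.

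The hairpins mir-34b, mir-144 and mir-126a stayed within the range. That of miR-153-3p, of the neuronal list, lay below it. Its 5p share was 2.92% of 171 reads in lung (interval 0.96% to 6.69%). The lowest other library with at least 20 reads was spleen, at 5% of 60 reads (interval 1.04% to 13.9%). The 5p share of mir-34b was 81.1% of 6458 reads in lung (interval 80.1% to 82.0%), against 59.1% of 3936 reads in testis, 55.8% of 711 reads in brain, a median of 57.5% and 88.4% of 43 reads in spleen. For mir-144 it was 5.74% in lung and 4.55% in spleen, against a median of 15.2% and 26.6% in spinal cord, and stomach was also low at 5.18%. mir-126a had 24.3% in lung against a median of 21.0%. In 5 hairpins the leading arm in lung was not that of the median: mir-136 (55.9% in lung, median 44.8%), mir-376b (60%, median 47.0%), mir-501 (58.8%, median 49.6%), mir-324 (50.4%, median 45.3%) and mir-297c (59.0%, median 36.7%). All 5 lay within the range of the others, and the intervals of mir-324, mir-376b and mir-297c spanned an even split.

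**Figure D5:**
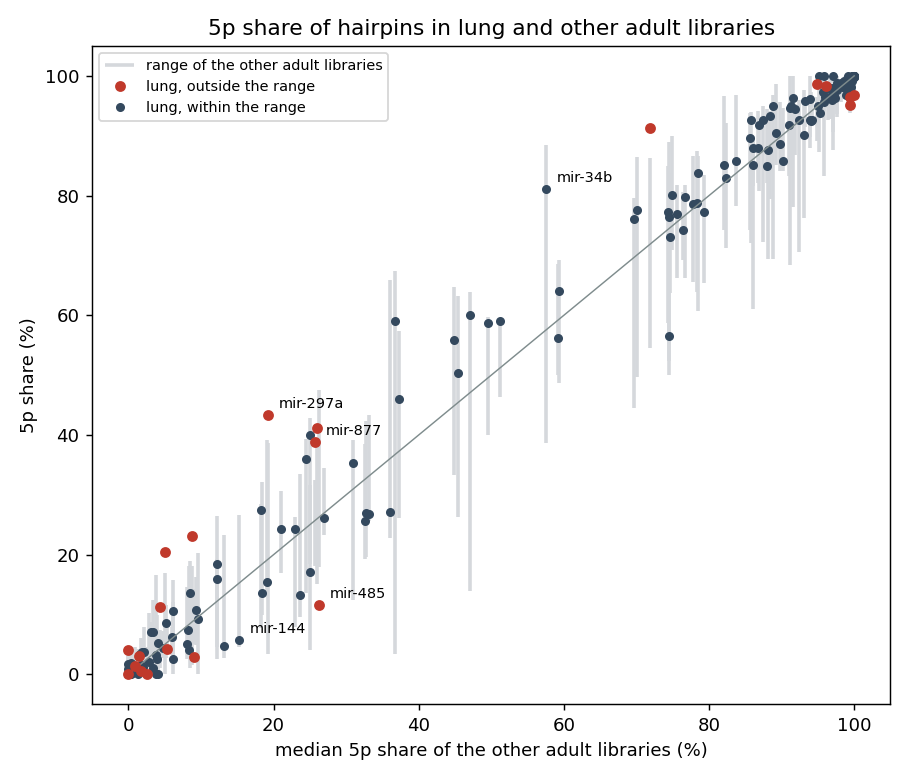
5p share (%) of 217 hairpins in lung (points, 1 library) against the median 5p share (%) of the other adult libraries, with grey bars for their range and a line of equality. Red points lie outside the range and are mostly at low coverage, mir-34b lies above the line within its range and mir-144 below it.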

How the data were processed

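Small RNA of 15 mouse libraries was measured, 1 per tissue or embryo stage. The deposited files hold raw read counts per mature miRNA name, and names not listed were taken as 0. Per the submitters' processing notes, the tools were bcl2fastq 1.8.4, BWA, bedtools and cutadapt, and the build was mm10. Their roles, and how multi-mapping reads were counted, are not stated in those notes. Per the labels' protocols, spike-in RNAs were added; no scaling to them was made.

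CPM is a count per 1000000 listed reads, with no further scaling. Lung was compared with the 11 other adult libraries by edgeR 4.0.16 (R 4.3.3, TMM, filterByExpr, quasi-likelihood, Benjamini-Hochberg, threshold 0.05), tested on simulated data. Arm usage was fitted on 5p and 3p counts of hairpins with 20 reads in lung and in at least 8 others. A median of 0 was replaced by 3 reads in a library of median depth. Alternatives were DESeq2 1.42.0, limma 3.58.1, library totals, no filter, all 15 libraries, other minimums and each library left out. Named are the 10 largest lung shares, the 12 largest ratios to the highest and to the median, the 8 smallest, the 8 hairpins farthest outside, and members of the lists. The members and lists were chosen with earlier results of these data known. Of 160 named miRNAs, 130 matched a RefSeq sequence. PCR reads are not independent molecules. The p-values measure spread between tissues, not animals.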

Additional observations from a re-analysis of the deposited data

Results flagged for a closer look

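The 3 embryo libraries, used above only in an alternative fit, were all higher than every adult library for 7 of the 27 names that lung led. The lowest embryo library had 7156 CPM of miR-199b-5p, against 2004 CPM in lung. For miR-542-3p it had 740 CPM, against 117 CPM in lung, and for miR-542-5p 239 CPM, against 43.1 CPM in lung. For miR-450a-5p it had 2262 CPM, against 515 CPM in lung, and for miR-450b-5p 208 CPM, against 35.4 CPM in lung. For miR-199a-3p and miR-199b-3p, whose reads may be shared, it had 35340 and 35405 CPM, against 5303 and 5310 CPM in lung. A lead of lung for these names thus holds among adult libraries only. For 19 of the 27 names lung was above all 3 embryo libraries. miR-99a-3p belonged to neither group. It had 126 CPM in lung, 98.3 CPM in the 11-day embryo library, 153 CPM in the 15-day and 161 CPM in the 17-day one.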

How the results depend on the processing

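No paired analysis was possible because each group compared has 1 library per tissue and the labels give no replicate numbers to share. The number of names called in lung by edgeR was 0, 41 with DESeq2 (all lower) and 1 with all 15 libraries (miR-1912-5p); leaving out each library in turn it ranged from 0 to 3. It was 1 without brain (miR-1912-5p) and 3 without testis. The count of names at least 2 times the highest other was 4, and 1 with a minimum of 500 lung reads; leaving out each library in turn it ranged from 4 to 13. It was 8 without heart, which added miR-208a-3p, miR-208b-3p and both strands of miR-126a, 8 without spleen, which added miR-451a, both strands of miR-144 and miR-497a-3p, and 13 without testis, which added 6 miR-34 and miR-449 names, miR-542-3p, miR-450b-5p and miR-503-5p. The count at least 4 times the median was 39, 22 with a minimum of 500 lung reads (fewer names enter) and 55 after TMM scaling. The count of hairpins outside the range was 21 and ranged from 21 to 32 when each library was left out, 32 without spleen. Calls of arm usage stayed at 0 under limma, a minimum of 50 reads and each library left out.

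Some fitted log2 fold changes turned round, none of them past the threshold in the fit with all adult libraries. After turning, only that of miR-449a-5p without testis was past it. That of miR-143-3p was -0.03, 0.057 with no filter, and -0.19 to 0.38 when each library was left out, above 0 without heart, smooth muscle or stomach. That of miR-29a-3p was 0.25, -0.094 with library totals, and -0.098 to 0.36 when each library was left out, below 0 without eye or testis. That of miR-30c-5p was 0.27, -0.037 with library totals, and -0.092 to 0.51, below 0 without spinal cord or testis. That of miR-34c-5p was 0.52 and -0.47 with library totals. That of miR-208a-3p was -0.78, and -1.13 to 6.04, above 0 without heart. That of miR-34b-3p was -0.31, and -0.45 to 3.999, above 0 without testis. That of miR-449a-5p was -0.24, 0.075 with all 15 libraries, and -0.38 to 5.75, above 0 without testis. The cause was not tested. Depth limits the values of rare names: testis has 148052 reads, and a name absent there may be present at up to 20.3 CPM. A single library per tissue gives no spread between animals. Of the alternatives computed for single names and lists, 613 kept their direction and call.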
